A study of Mus musculus with 8 samples.

Results

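The 38 listed Hox genes of the mouse lie in 4 clusters, with 10 genes in Hoxa on chromosome 6, 10 in Hoxb on chromosome 11, 9 in Hoxc on chromosome 15 and 9 in Hoxd on chromosome 2. Their m6A peaks were found by taking every peak summit that fell in an annotated exon of a listed gene. Of 42744 summits, 62 met this rule, and they came from 17 of the 38 genes. The peaks came from m6A-RIP-seq of mouse primary vascular smooth muscle cells (VSMCs), in which fragmented RNA was pulled down with an anti-m6A antibody and sequenced. Per the study's methods the cells were cultured from the descending aorta of adult C57BL/6J mice and transduced with lentivirus. The shCTR group received a nontargeting control hairpin, and the shMettl14 group a hairpin against Mettl14, a subunit of the m6A writer complex. Each group had replicates A and B, with an IP and an Input sample for each letter, and 1 peak list was analysed per IP sample. Peak lists hold no RNA levels, and the knockdown itself was therefore not checked.

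Hox genes encode transcription factors with a homeodomain, the DNA-binding domain that the homeobox encodes. Within a cluster they stand in the order in which they are used from head to tail, so low-numbered (anterior) genes are active in more of the body axis and high-numbered (posterior) genes only toward the tail. Genes of different clusters with the same number are paralogs and form a paralog group. Cells taken from an adult vessel often keep the Hox pattern of the body level at which that vessel formed. m6A is usually written on an adenosine within the motif DRACH (A, G or T, then A or G, then AC, then A, C or T), and it gathers in long exons and around stop codons.

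To compare the stretches under the peaks, the DRACH nearest to the middle of the 4 summits is shown first for each of the 10 genes with a peak in every list. The sequences were read 5′ to 3′ on the transcript strand from the GENCODE M21 transcripts (GRCm38), and capitals mark the motif.
Hoxa2, chr6:52163341-52163369, minus strand: cctggaggactcGGACAaagtggaggaag
Hoxa3, chr6:52170068-52170096, minus strand: ctcggctgccatGGACTacgggggcactg
Hoxa5, chr6:52204284-52204312, minus strand: tccaaatggcccGGACTaccagttgcata
Hoxa6, chr6:52206408-52206436, minus strand: aaaaaggaaaatAAACTcatcaactccac
Hoxa7, chr6:52215687-52215715, minus strand: gggccaggcacaGGACCctggctgcacag
Hoxb3, chr11:96346289-96346317, plus strand: aaccagcatcatGGACCctgtgaccctca
Hoxb4, chr11:96320529-96320557, plus strand: aaagtccttcggAGACAagattcgagtct
Hoxb8, chr11:96284338-96284366, plus strand: gtggaaaaaggaGAACAacaaagacaagt
Hoxd3, chr2:74744273-74744301, plus strand: ggtagctgtatgAGACCtggcactgggaa
Hoxd4, chr2:74728582-74728610, plus strand: ttatagaagtggGGACCctgggcctatcc
The motif stood 3 nt from the middle of the summits in Hoxb3, 8 nt in Hoxa3 and in Hoxa6, and 44.5 nt in Hoxb4, the farthest of the 10. The summits of a gene spanned 369 nt in Hoxa2, 137 nt in Hoxa7 and 127 nt in Hoxd4, so their middle need not lie under any summit. Each Hoxa2 summit had a DRACH 1 to 6 nt away that is not the printed motif. It lay in the coding sequence of 7 genes and in the 3′ UTR of Hoxa7, Hoxb4 and Hoxd4. A peak covers a fragment of RNA, so these letters mark the nearest motif and not a measured methylated base.

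In these lists the peaks lay on genes of paralog groups 2 to 9, and none fell on a gene of groups 1 or 10 to 13. Hoxa2, Hoxa3, Hoxa5, Hoxa6, Hoxa7, Hoxb3, Hoxb4, Hoxb8, Hoxd3 and Hoxd4 carried a summit in all 4 lists. Hoxb6 was missing only from shMettl14 A, and Hoxb7 and Hoxd8 only from shCTR A. Hoxb9 and Hoxc8 had a summit in the B list of either shRNA and in no A list, Hoxa4 only in shMettl14 A, and Hoxb2 only in shCTR A. The other 21 genes had none: Hoxa9, Hoxa10, Hoxa11, Hoxa13, Hoxb1, Hoxb5, Hoxb13, Hoxc4, Hoxc5, Hoxc6, Hoxc9, Hoxc10, Hoxc11, Hoxc12, Hoxc13, Hoxd1, Hoxd9, Hoxd10, Hoxd11, Hoxd12 and Hoxd13. A gene without a peak may lack m6A, may lack RNA or may have too little of either to be called, and these cannot be told apart here.

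**Figure D1:**
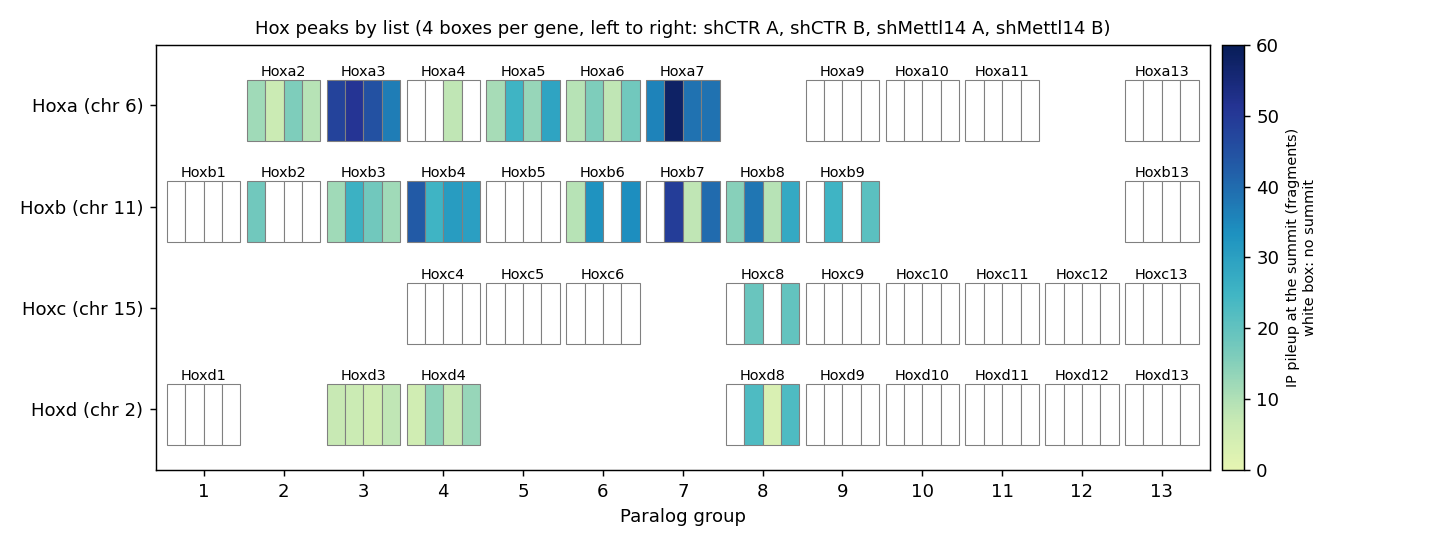
Peaks on the 38 listed Hox genes, with clusters as rows and paralog groups as columns. The 4 boxes of a gene are the lists shCTR A, shCTR B, shMettl14 A and shMettl14 B, coloured by the IP pileup in fragments at the summit with the highest fold enrichment, and a white box means no summit. Filled boxes stand in paralog groups 2 to 9 only, and Hoxc8 is the only Hoxc gene with any.

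The clusters differed in how many genes were marked. Hoxa had peaks on 6 of 10 genes, 5 of them in every list, and Hoxb on 7 of 10, 3 of them in every list. Hoxd had 3 of 9, and Hoxc only Hoxc8 of 9. In all, 17 of the 38 Hox genes had a summit in any list, beside 25.6% of the 21495 coding genes of the annotation. In every list a summit was found on 10 Hox genes (26.3%), beside 16.2% of coding genes. The higher share did not hold when each list was limited to an equal number of peaks of highest −log10 p, with 4 Hox genes (10.5%) beside 3006 of the 21495 coding genes. At a −log10 q of at least 5 there were 6 Hox genes (15.8%), beside 14.2%.

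The lists differed in size, and the A list of each shRNA was the longer. They held 11158 summits (A) and 8655 (B) for shCTR, 13675 (A) and 9256 (B) for shMettl14. The IP pileup, which is the number of overlapping fragments at a summit, had a median of 13 to 16 over all summits of a list, and that of Hox summits ran from 3 to 58. It was recovered together with the background from the deposited fold enrichment and −log10 p, and the background is the number of fragments that the peak caller expected there. Among markers of cell type, smooth muscle Myh11 carried summits in 3 lists, and Acta2, Tagln, Cnn1, Myocd and Smtn in none. The endothelial gene Cdh5 had summits in all 4 lists with pileups of 93, 109, 46 and 70 fragments, Pecam1 in all 4, Kdr in 3 and Tek in none. Pdgfra, a fibroblast marker, was in all 4, whereas Dcn, Lum and Pi16 were in none, and of the leukocyte markers only Csf1r had a summit, in 1 list. The study's methods describe stripping of the adventitia and scraping of the endothelium before the cells grew out of the aorta. Fewer cells of a type and less RNA per cell cannot be told apart in such samples, and the part of other cells in the Hox peaks was not tested.

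Most Hox peaks lay near the end of the coding sequence. Of the 62 summits, 46 fell in coding sequence, 15 in a 3′ UTR and 1 in a 5′ UTR, and 51 were in the last exon. In shCTR, 7 of 13 Hox summits of list A (53.8%, exact 95% interval 25.1 to 80.8) and 10 of 16 of list B (62.5%, 35.4 to 84.8) lay within 200 nt of the stop codon. In shMettl14 the numbers were 11 of 16 for list A (68.8%, 41.3 to 89.0) and 10 of 17 for list B (58.8%, 32.9 to 81.6). The shCTR lists averaged 58.2% ± 6.12 and the shMettl14 lists 63.8% ± 7.02 (SD, n = 2 each), and the groups overlapped. Over all summits placed on a single coding transcript the shares were 26.8% ± 0.041 and 26.3% ± 1.21 (SD, n = 2). Hox messages are shorter, however. The coding sequence of the 17 genes with peaks had a median of 750 nt against 1686 nt over the 5509 coding genes with a summit. In these Hox genes 18.3% of the transcript bases lay within 200 nt of the stop codon against 9.0% over those coding genes.

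**Figure D2:**
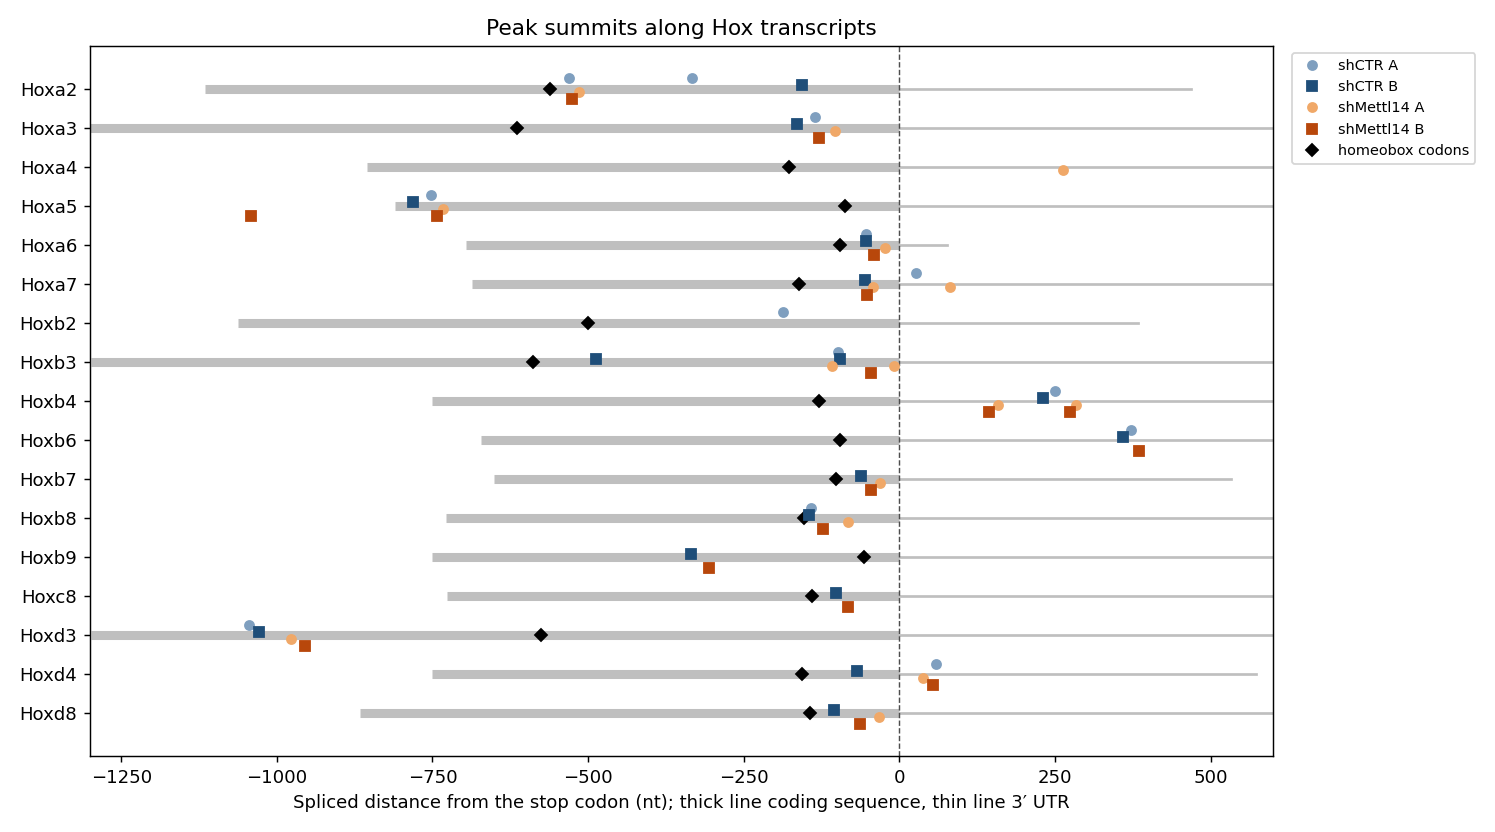
Summits along the transcripts of the 17 Hox genes with peaks, by spliced distance in nt from the stop codon (dashed line). Thick lines are coding sequence, thin lines 3′ UTR, diamonds the homeobox codons described in the text, and each point is 1 summit of 1 list. Hoxb4, Hoxb6 and Hoxa4 have their summits in the 3′ UTR, and Hoxa5, Hoxb9 and Hoxd3 well upstream of the homeobox.

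The position of the peaks fell into a few kinds. In the first kind, peaks lay between the homeobox codons, a part of the homeobox described below, and the stop codon, or just past it. Examples were Hoxa3 (103 to 164 nt before the stop codon), Hoxa6 (24 to 54 nt before it) and Hoxa7 (56 nt before to 81 nt after it). In the second kind, peaks lay in the 3′ UTR, as in Hoxb4 (143 to 283 nt after the stop codon) and Hoxb6 (359 to 385 nt after it). In the third kind, peaks lay in an exon before the last and upstream of the homeobox codons, in Hoxa5 at 733 to 782 nt before the stop codon, with 1 more summit in the 5′ UTR in shMettl14 B, in Hoxb9 at 306 to 335 nt and in Hoxd3 at 954 to 1045 nt. In Hoxb4 the summits of shCTR stood 249 (A) and 231 nt (B) after the stop codon. Both shMettl14 lists had a summit further on, at 283 (A) and 274 nt (B), and a smaller one at 158 (A, 10 fragments) and 143 nt (B, 11 fragments). Paralogs shared a kind of position in some groups and not in others. In group 8, Hoxb8, Hoxc8 and Hoxd8 had peaks at or past the homeobox codons and before the stop codon. Those of Hoxb8 began 7 nt past the first base of these codons, so the nearest lay inside the homeobox itself. In group 7, Hoxa7 and Hoxb7 had peaks close to the stop codon. In group 4, Hoxa4 and Hoxb4 had peaks further into the 3′ UTR, and Hoxd4 around the stop codon, from 68 nt before it to 59 nt after it. In group 6, Hoxa6 peaks stood just before the stop codon and those of Hoxb6 far past it. In group 3, Hoxa3 and Hoxb3 had peaks close to the stop codon and Hoxd3 did not.

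In Hoxb7, Hoxb8, Hoxc8 and Hoxd8 the peaks met at a stretch that these genes share. The codons of the homeodomain's recognition helix, for tryptophan, phenylalanine, any residue, asparagine and arginine, were found once in each of the 38 coding sequences. The third base of a GAACA motif stood 37 nt past the first base of those codons in 5 of the 38 genes. This set was singled out after the values had been seen, and 4 of the 5 genes had a summit within 100 nt of those codons. So did 3 genes without GAACA there, Hoxa2, Hoxa6 and Hoxd4, which makes 7 members in all, and a link between the peaks and GAACA was not tested. The sequences are printed as before, with GAACA in capitals, and that of Hoxb8 is among those above.
Hoxb7, chr11:96289549-96289577, plus strand: gtggaaaaaggaGAACAaaacctcaggac
Hoxc8, chr15:102992735-102992763, plus strand: gtggaaaaaggaGAACAacaaggataaac
Hoxd8, chr2:74706689-74706717, plus strand: atggaaaaaggaGAACAacaaagacaagt
Hoxd11, chr2:74684081-74684109, plus strand: agaaaagaaactGAACAgggaccgtctgc
Summits of Hoxb7 stood 40 to 71 nt past the recognition helix codons, those of Hoxb8 7 to 71 nt, those of Hoxc8 39 and 58 nt, and those of Hoxd8 39 to 111 nt. Hoxd11 holds the same 5 letters there but had no peak in any list. The longest run of identical bases between any pair of Hoxb7, Hoxb8, Hoxc8 and Hoxd8 in this stretch was 32 nt, between Hoxb8 and Hoxd8, and the shortest such maximum was 17 nt. The authors kept uniquely mapped reads, so a read that matched 2 of these genes equally well would not have been kept. Of all transcript positions in the 5509 coding genes with a summit, 11.96% had a GAACA within 50 nt, and 6.96% of those in the 17 Hox genes.

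Nearly every Hox summit had a DRACH close by. The share with 1 within 50 nt on the transcript strand was 13 of 13 (A) and 16 of 16 (B) for shCTR, 15 of 16 (A) and 15 of 17 (B) for shMettl14. The shMettl14 mean was 91.0% ± 3.90 (SD, n = 2), and over all summits the shares were 96.0% ± 0.165 for shCTR and 95.5% ± 0.790 for shMettl14. The exceptions were the 5′ UTR summit of Hoxa5 in shMettl14 B, 63 nt from the nearest DRACH, and the stronger Hoxb4 summit in shMettl14 A (64 nt) and B (57 nt). Any position in the 17 Hox transcripts had a DRACH within 50 nt in 77.7% of cases, and in 86.99% over the coding genes with a summit.

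The number of Hox peaks differed between the shRNAs by less than the spread between the shCTR replicates. Hox genes carried 13 summits (A) and 16 (B) for shCTR, 16 (A) and 17 (B) for shMettl14, a mean of 14.5 ± 2.12 against 16.5 ± 0.707 (SD, n = 2). The ratio of shMettl14 to shCTR was 1.14, beside 1.16 for all summits. Per 1000 summits of a list the Hox genes had 1.507 ± 0.484 in shCTR and 1.503 ± 0.472 in shMettl14. With 2 lists against 2 an exact permutation test cannot give a p below 0.333.

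Joining overlapping intervals (by 1 bp or more) across the 4 lists gave 11361 regions, of which 18 held a Hox summit, 2 of them on Hoxb3. All 4 lists contributed to 10 of the 18 (55.6%), beside 43.4% of all regions. No Hox region was present in both shCTR lists and absent from both shMettl14 lists, a pattern of 1.71% of all regions, and none showed the opposite pattern, which held for 1.79%. The 2 sets of intervals that the authors deposited as the overlap of both replicates each touched 11 of the 18 Hox regions, the 10 found in every list with Hoxb6 for shCTR and Hoxb7 for shMettl14. The Hoxd8 region was not in the shMettl14 set, although the intervals of both shMettl14 lists overlapped there.

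Of the 10 regions found in all lists, those of Hoxa3, Hoxa7 and Hoxb4 had the highest mean pileup over the 4 lists. The values given for a gene are those of its summit with the highest fold enrichment in each list, and these summits need not stand at the same place. On Hoxa3, which patterns the pharyngeal arches and the thymus, the pileup was 48 fragments (A) and 51 (B) for shCTR, 45 (A) and 37 (B) for shMettl14. Its fold enrichment over background was 16.7, 23.0, 12.9 and 19.7 in the same order, which ranked it at the 93.3, 98.4, 88.3 and 96.3 percentile of all summits of its list. Values below are given in this order of lists. All 4 lists thus placed Hoxa3 among their upper ranks. On Hoxb4, known for promoting the self-renewal of blood stem cells, the pileup was 43, 25, 31 and 30 and the percentile 96.3, 83.2, 92.4 and 82.0, with the higher rank in the A list of each shRNA. On Hoxa7 the pileup was 36, 58, 39 and 39 and the percentile 73.8, 71.1, 97.6 and 43.5. These Hoxa7 values come from different places, 27 nt after the stop codon in shCTR A, 81 nt after it in shMettl14 A, and 56 and 52 nt before it in the B lists. A further summit of shMettl14 A, 43 nt before the stop codon and so nearest to those of the B lists, had 26 fragments at the 60.2 percentile.

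Hoxa5, Hoxa6 and Hoxd4 ranked higher in the B list than in the A list of either shRNA. Hoxa5, which is needed for lung development, had pileups of 11 (A) and 25 (B) for shCTR, 13 (A) and 29 (B) for shMettl14, at the 28.7, 77.5, 63.2 and 94.0 percentile. Hoxa6 had 9, 16, 8 and 18 fragments, at the 46.2, 53.4, 32.4 and 81.5 percentile. Hoxd4, which patterns the hindbrain and the upper neck, had 5, 14, 7 and 13 fragments, at the 13.3, 51.0, 31.3 and 74.8 percentile. In all of these the lower of the B pileups was above the higher of the A pileups.

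The other 4 regions found in all lists were on Hoxa2, Hoxb3, Hoxb8 and Hoxd3. Hoxa2, which patterns the second pharyngeal arch, had 12, 6, 16 and 9 fragments, at the 36.2, 7.86, 36.2 and 11.99 percentile, and was lower in the B lists. These summits stood 333 (A) and 157 nt (B) before the stop codon in shCTR and 514 (A) and 526 nt (B) before it in shMettl14. A further shCTR A summit, 531 nt before the stop codon, had 14 fragments at the 12.4 percentile. Hoxb3 had 12, 26, 18 and 12 fragments, at the 11.1, 70.5, 63.5 and 21.7 percentile, with no order by shRNA or letter. Hoxb8, which holds back the differentiation of myeloid progenitors when overexpressed, had 15, 38, 9 and 28 fragments, at the 39.0, 50.1, 43.6 and 57.7 percentile. Hoxd3 had the lowest mean pileup of the 10, with 7, 6, 5 and 8 fragments at the 37.9, 22.1, 17.2 and 50.5 percentile. The Hoxb3 and Hoxb2 summits also lay in exons of Hoxb3os, a noncoding gene on that stretch, those of Hoxd3 and Hoxd4 in exons of Gm28230, and 3 of Hoxa2 in Gm28308, which makes 18 of the 62 summits, and peak lists do not assign fragments to 1 gene of such a pair.

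**Figure D3:**
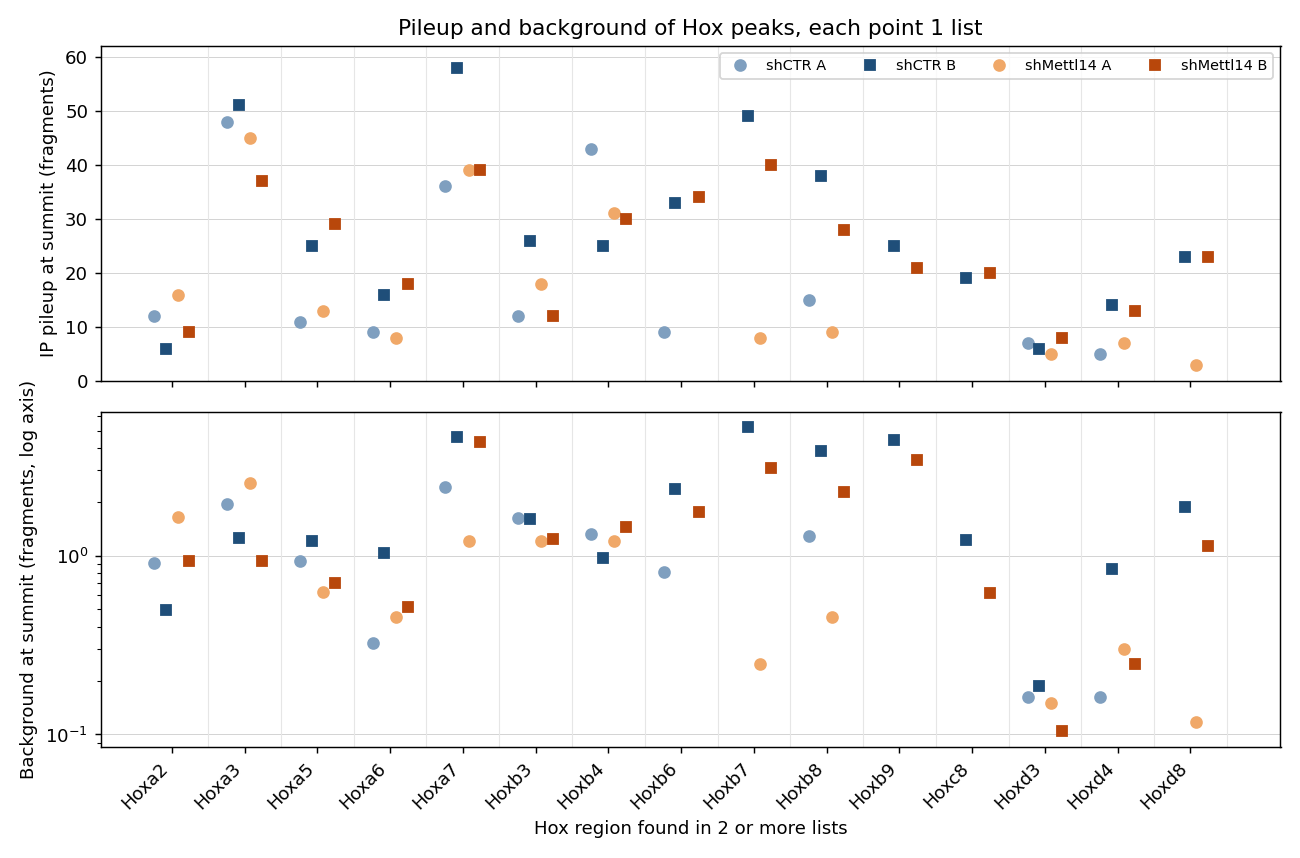
IP pileup (upper panel) and background (lower panel, log axis) in fragments at the strongest summit of the 15 Hox regions found in 2 or more lists, with 1 point per list. In Hoxb6, Hoxb7, Hoxb8 and Hoxd8 the squares of the B lists stand above the circles of the A lists in both panels, as they do for Hoxa6 and, for the background alone, Hoxa7.

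To ask whether any Hox peak changed its standing after knockdown, fold enrichments were ranked within each list over the 4929 regions found in all 4 lists, turned into normal scores (a rank on the scale of a standard normal distribution) and compared with limma. None of the 10 Hox regions passed a Benjamini-Hochberg adjusted p of 0.05, and neither did any of the 4929 regions (0%). Without adjustment 243 regions (4.93%) had a p under 0.05, again with no Hox region among them. With 1 list left out, a group held a single list, and the differences of those fits are given further below. Fisher's exact test on pileups summed per group also gave 0 regions after adjustment, and 126 without it. Hoxa5 had the largest difference of the 10, with a mean score of −0.42 in shCTR and 0.44 in shMettl14, a difference of 0.86 ± 0.60 (SE) with an adjusted p of 0.993. It came to 0.064 without shCTR A and to 0.051 without shMettl14 B, and then was not the largest. Hoxd4 had mean scores of −1.11 and −0.46, a difference of 0.65 ± 0.57 (SE, adjusted p = 0.999). Hoxa3 had 1.49 and 1.06, a difference of −0.43 ± 0.52 (SE, adjusted p = 0.999). The other 7 lay between −0.27 for Hoxb4 and 0.37 for Hoxa7. Over the 10 regions the median difference was 0.18, with 8 higher and 2 lower in shMettl14, beside a median of 0.00 over all regions, of which 2471 were higher and 2458 lower. A region's score is that of its summit with the highest fold in each list, so for Hoxa2, Hoxa7 and Hoxd4 it sets different places side by side.

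Within the letters, both pairs of lists gave the same direction for 5 of the 10 Hox regions, beside 51.2% of all regions. For Hoxa5 the difference was 0.85 between the A lists and 0.88 between the B lists, for Hoxd4 0.55 and 0.75, and for Hoxa3 −0.45 and −0.41. In these 3 regions the letters gave the same sign and similar values. In Hoxa7 and Hoxb3 they gave opposite signs, with 1.49 and −0.74 for Hoxa7 and 1.503 and −1.33 for Hoxb3. Hoxa2, Hoxa6 and Hoxd3 were lower in shMettl14 between the A lists, with −0.02 for Hoxa2, and higher between the B lists. A loss of m6A that was equal at all sites would not alter ranks and would escape this test.

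**Figure D4:**
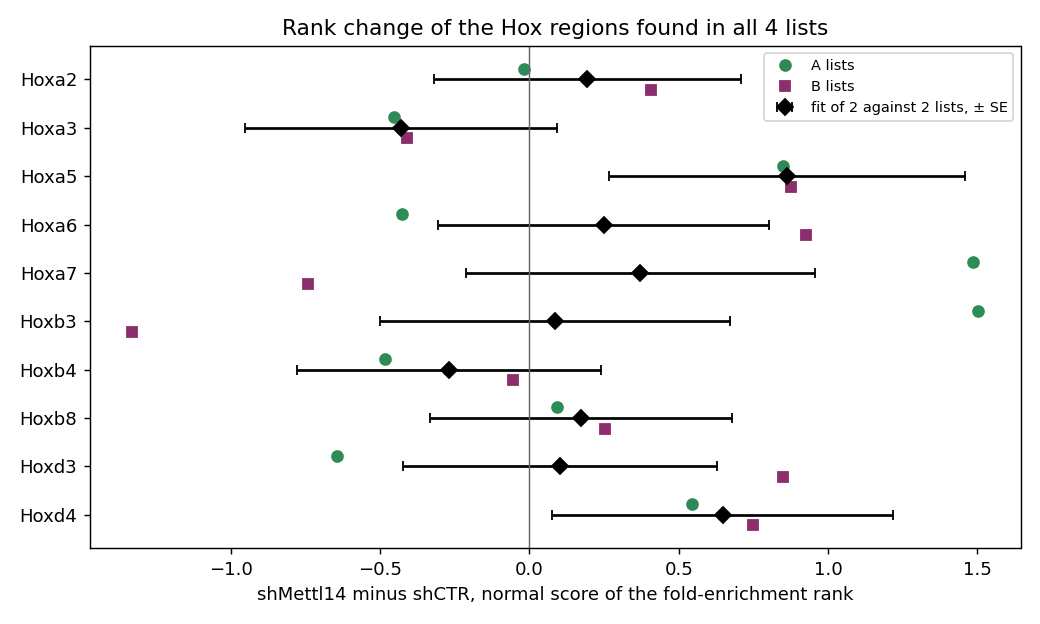
Difference in normal score, shMettl14 minus shCTR, for the 10 Hox regions found in all 4 lists. Diamonds with bars are the fitted difference ± SE over 2 against 2 lists, circles the difference between the A lists and squares that between the B lists. Hoxa5 has a fitted difference of 0.86, and the circles and squares of Hoxa7 and Hoxb3 lie on opposite sides of 0.

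Replicate letter went with larger differences than the hairpin did in several Hox genes, a pattern noticed in these values and described here with no test. Although the A lists were longer, the B lists held more Hox summits per 1000 summits (1.85 and 1.84 against 1.17 and 1.17). When each list was limited to its 8655 peaks of highest −log10 p, the Hox summits numbered 8 (A) and 16 (B) for shCTR, 8 (A) and 17 (B) for shMettl14. Of the 18 Hox regions, 2 were in both B lists and neither A list (1.21% of all regions), Hoxb9 and Hoxc8, and none was in both A lists and neither B list (6.79%). Pileups were higher in B for both shRNAs at 4 of the 10 Hox regions found in all lists (10.3% of all such regions) and lower in B at 2 (43.2%). Fold enrichment was higher in B for both shRNAs at 5 of 10 (24.5%) and lower at 3 (28.2%).

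Beside Hoxa5, Hoxa6, Hoxd4 and Hoxb8, whose pileups are given above, several genes without a peak in every list also had their higher values in the B lists. Hoxb7 had 49 fragments in shCTR B and no peak in shCTR A, and 40 fragments in shMettl14 B against 8 in shMettl14 A. Hoxb6 had 9 fragments in shCTR A, 33 in shCTR B, no peak in shMettl14 A and 34 in shMettl14 B. Hoxd8 had no peak in shCTR A and 23, 3 and 23 fragments in the others. In each of these 3 genes the B lists of both shRNAs stood above the A list that had a peak. Hoxc8 and Hoxb9 had no peak in an A list to compare with. Hoxc8, which specifies identity at the level of the forelimb and chest, had 19 fragments in shCTR B and 20 in shMettl14 B, and Hoxb9 had 25 and 21.

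The background at several of these summits was higher in the B lists as well. At Hoxb8 it was 1.29 fragments (A) and 3.84 (B) for shCTR, 0.451 (A) and 2.27 (B) for shMettl14, and at Hoxa7 2.43, 4.59, 1.20 and 4.34, with 2.255 at the shMettl14 A summit nearest to those of the B lists. At Hoxb7 it was 5.25 in shCTR B and 3.10 in shMettl14 B but 0.248 in shMettl14 A. At Hoxa3 it ran the other way, with 1.94 (A) and 1.26 (B) for shCTR, 2.56 (A) and 0.930 (B) for shMettl14. Of the 10 Hox regions found in all lists, the background was higher in B for both shRNAs at Hoxa5, Hoxa6, Hoxa7 and Hoxb8 (495 of all 4929 such regions) and lower in B at Hoxa2 and Hoxa3 (2420 of them, 49.1%). At Hoxb3, Hoxb4, Hoxd3 and Hoxd4 the shRNAs gave opposite orders. Whether the letters differ in RNA level, in the cells isolated or in handling was not tested, and nothing in the labels says what a letter stands for.

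Some partners of the Hox proteins had peaks as well. Homeodomain cofactors of the Meis and Pknox families bind DNA together with Hox factors. Meis1, Meis2 and Pknox2 had summits in all 4 lists, and Meis3 and Pknox1 had none in any. Pknox2 ranked highest of them, at the 98.1, 96.4, 94.2 and 93.9 percentile with 31, 26, 26 and 22 fragments. Meis2 had a region at 0.65 ± 0.50 and another at −0.97 ± 0.51 in normal score (shMettl14 minus shCTR, ± SE), and neither these nor the regions of Meis1 and Pknox2 passed the adjusted threshold. Of 29 other homeobox genes, 15 had a summit in some list (25.6% of coding genes) and 11 in all 4 (16.2%), and 0 of their 19 regions found in every list passed. Zfhx3, a large homeobox factor, had the most summits of these, with 15, 11, 21 and 14. Among 38 noncoding genes inside the Hox clusters 3 had an exonic summit, Hoxb3os, Gm53 and Hoxaas2, beside 1.54% of all 33499 genes not annotated as protein coding. All 7 Hoxb3os summits were those also counted for Hoxb2 and Hoxb3, and Hoxaas2 had its summit in shMettl14 A alone. Gm53, in the Hoxb cluster, had 27 fragments in shCTR B, 21 in shMettl14 B and no peak in an A list.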

How the data were processed

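The 4 m6A-RIP-seq peak lists of mouse primary VSMCs (shCTR and shMettl14 IP, replicates A and B) were analysed. Per the study's methods, alignment to mm10 was followed by a SAMtools filter for unique mapping, and the authors called IP peaks over Input with MACS2. STAR is among the tools in the submitters' processing notes. Versions and options are not given in the sources used here. The deposited lists hold the ratio (fold enrichment) at each summit with its −log10 p and −log10 q, called per sample. The deposited interval sets of both replicates carry no values.

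From MACS2's formulas, a whole-number pileup and a background were recovered that matched 100% of summits (largest error 0.000151 in −log10 p). In simulated peaks 99.1% of pileups were recovered. Intervals were merged at 1 bp. Normal scores of within-list fold-enrichment ranks were tested with limma 3.58.1 (R 4.3.3, two-sided) over all 4929 regions with Benjamini-Hochberg adjustment. Alternatives changed the ranked measure, scale, test, block, list depth, threshold, overlap, windows and replicates. On simulated scores of 4929 regions with 1 common spread, 200 regions were shifted by far more than the largest Hox difference. Of these 154 were called, among 161 calls in all. Power at the size of the Hox differences was not measured. Summits were placed on GENCODE M21, with the coding transcript of longest coding sequence per gene (21495). Every member is accounted for, with full values for those in all lists. Python 3.11.15 and scipy 1.17.1 were used. Binomial intervals are exact (Clopper-Pearson, 95%) and, like pileups, cover counting error only. Nothing says that replicates were separate cultures, so p-values measure the spread between these samples, which may be technical. Depth of sequencing was not analysed here, and 1 result is not reported here. The members and lists were chosen with earlier results of these data known.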

Additional observations from a re-analysis of the deposited data

How the results depend on the processing

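Under the 10 alternatives tried, 0 Hox regions passed the rank test in each, with 4 Hox regions tested among equal numbers of top peaks and 10 elsewhere. Where a list was left out, its group held a single list and the spread of that group could not be measured. Over all 4929 regions 3 passed without shMettl14 replicate A, by limma. Pileups of 3 to 58 fragments limit any single peak, and 18 of 62 Hox summits rested on 10 or fewer. Limited to equal numbers of top peaks, 4 Hox genes stayed in every list (Hoxa2, Hoxa3, Hoxa7 and Hoxb4) in place of 10, since fewer peaks of the A lists entered, and 6 stayed at a −log10 q of at least 5. Leaving out 1 list gave 10 to 12. Hox regions of 1 shRNA only numbered 0 to 3 when a list was left out. Within 100 nt of the stop codon lay 31.0% (shCTR) and 45.6% (shMettl14) of Hox summits, within 400 nt 79.1% and 78.9%, and within 200 nt by interval midpoint 54.3% and 53.1%, so that the order of the groups turned in these last 2 settings. DRACH stood within 25 nt at 79.1% and 81.8%, and within 100 nt at 100% in shMettl14. The ratio of Hox summits stayed within its spread.

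None of the rank differences had passed the test, and 9 of the 10 turned sign under some alternative. The cause was not tested. With equal numbers of top peaks Hoxa2 came to −0.10, and with −log10 p ranked Hoxb8 to −0.12. Ranking pileups gave 0.059 for Hoxa3, −0.002 for Hoxb3, 0.20 for Hoxb4 and −0.37 for Hoxb8, and Fisher's exact test on summed pileups, which treats fragments as units, gave log2 ratios of 0.023, −0.046, 0.14 and −0.22 for them. With a single list left out, the lone list of its group being assumed to vary like the other group, the differences ran from −0.26 to 0.65 for Hoxa2, −0.87 to 0.008 for Hoxa3, 0.05 to 1.68 for Hoxa5, −0.61 to 1.11 for Hoxa6, −0.70 to 1.44 for Hoxa7, −0.91 to 1.09 for Hoxb3, −0.66 to 0.12 for Hoxb4, −0.15 to 0.49 for Hoxb8, −0.51 to 0.71 for Hoxd3 and −0.10 to 1.40 for Hoxd4.

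With the replicate letter as a block, 0 Hox regions passed and the Hoxa5 difference of 0.86 had an adjusted p of 0.864 by limma. The correlation of the A minus B deviations between the shRNAs was 0.08 over 4929 regions, and the letters were not taken as pairs.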
